A study of Mus musculus with 2 samples.

Results

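Neutrophils carry their antimicrobial proteins in granules that are filled in sequence as the cell matures. Primary granules are made at the promyelocyte stage, secondary (specific) granules at the myelocyte and metamyelocyte stages, and gelatinase granules last, so RNA for each class marks a stage of maturation. The 8 genes described here encode proteins of the later classes: Ltf, Ngp, Camp and Lcn2 of specific granules, the metalloproteinases Mmp8 and Mmp9, and the lysozymes Lyz1 and Lyz2. Lysozyme is stored in more than 1 granule class and is also made by monocytes and macrophages, so its genes are less tied to specific granules than the others. The genes were taken by symbol from the 24421 symbols in the files, and all 8 were listed in both libraries. The set was chosen with earlier results of these data known.

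RNA was measured by bulk RNA-Seq in granulocyte-monocyte progenitors (GMPs), the BM precursors of neutrophils and monocytes, sorted by flow cytometry from female mice of an F1 H-2b/d background. There was 1 library from non-tumor-bearing mice (NTB-GMP) and 1 from mice with orthotopic implants of 4T1, a mammary carcinoma cell line (4T1-GMP). The labels give neither the age of the mice nor how many contributed to a library, and the gate used for these sorts is not given in the sources used here, although the study depleted Gr-1+ cells before other sorts of GMPs. With 1 library per group no difference has a replicate check, and intervals below are 95% intervals on the reads of these libraries, which cover counting error only and compare the libraries, not the conditions.

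Values are RPKM, reads per kilobase of gene and scaled to the size of the library. At least 9486708 reads (NTB-GMP) and 26353111 reads (4T1-GMP) were recovered from the RPKM. A gene was tested when its mean RPKM over both libraries was at least 1, which 10378 genes were, and its log2 ratio was that of RPKM + 0.1 in 4T1-GMP over NTB-GMP. The median log2 ratio of all tested genes was 0.05, and 54.7% of them were above 0. Rn45s, the ribosomal RNA precursor, accounted for 17% of the library size for NTB-GMP against 6.98% for 4T1-GMP. Subtracting its reads from both library sizes moved the median of all tested genes by -0.16 and left 39.2% above 0. Upper-quartile scaling moved that median by -0.11 and left 44.5% above 0.

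The sorted cells carried RNA for the surface proteins that define GMPs. Kit had 78.5 RPKM (NTB-GMP) against 49.1 RPKM (4T1-GMP), Cd34 at 153.8 and 59.4 RPKM, and Fcgr3 at 53.1 and 28.6 RPKM. All 3 were lower in 4T1-GMP, with log2 ratios of -0.67, -1.37 and -0.89, while Fcgr2b had a log2 ratio of 0.45. Markers taken as outside a GMP gate, namely Ly6a (Sca-1), Slamf1, Il7r, Cd3e, Cd79a and Ms4a1, summed to 0.53 RPKM in each library. The choice of these markers was assumed, since the gate of these sorts is not given. Genes of other lineages were not all low: basophil, mast cell and eosinophil markers summed to 1805 RPKM (NTB-GMP) and 654.3 RPKM (4T1-GMP).

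The 8 granule protein genes had a summed level of 459.8 RPKM in 4T1-GMP against 172.3 RPKM in NTB-GMP, 2.67 times as much. Of the 8, 6 were at least 2-fold higher in 4T1-GMP (log2 ratio of at least 1), against 3.25% of all tested genes, and 2 were at least 8-fold higher (log2 ratio of at least 3), against 0.53% of all tested genes. Those past 2-fold were the genes of the secreted proteins Ltf, Ngp, Camp and Lcn2 and both metalloproteinases, while both lysozymes lay below it. Because the set and the 8-fold mark were chosen with earlier results of these data known, these counts describe the set and are not a test of it. The median log2 ratio of the 8 was 1.74, with a range from 0.18 to 4.52. All 8 passed the filter on low values, although Mmp8 and Mmp9 did so only through 4T1-GMP. In bulk RNA, a larger share of cells carrying a transcript and more of it per cell cannot be told apart.

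**Figure D1:**
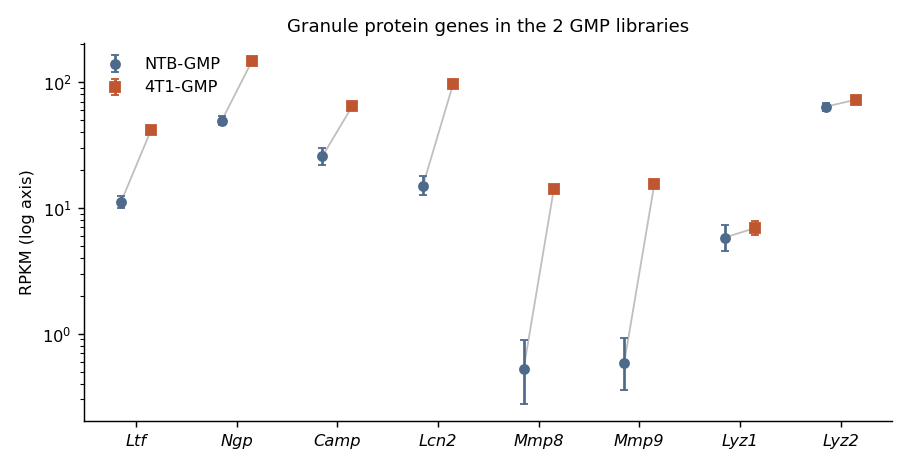
RPKM (log axis) of each of the 8 genes in NTB-GMP (circles) and 4T1-GMP (squares); bars are 95% exact Poisson intervals on the reads and grey lines join the values of a gene. Mmp8 and Mmp9 start below 1 RPKM in NTB-GMP and stand at 14.1 and 15.6 RPKM in 4T1-GMP, while Lyz1 and Lyz2 are nearly level.

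Among the specific granule proteins, Lcn2 differed most. Lipocalin 2 binds the siderophores with which bacteria take up iron. Its gene was at 15.1 RPKM, from 131 reads, in NTB-GMP and reached 97.0 RPKM, from 2483 reads, in 4T1-GMP, a 6.43-fold difference with an interval of 5.39 to 7.72. Its log2 ratio of 2.68 was the 63rd highest of the 10378 tested genes, and its interval overlapped that of no other gene of the 8.

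Ltf encodes lactoferrin, the iron-binding protein that is the classic marker of specific granules. Its 311 reads in NTB-GMP gave 11.1 RPKM and its 3453 reads in 4T1-GMP gave 42.0 RPKM. The 3.77-fold difference had an interval of 3.35 to 4.24, which lay wholly above those of Ngp and Camp. Its log2 ratio was 1.90, above 99% of tested genes.

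Ngp and Camp are both built on a cystatin-like domain: Camp encodes the precursor of the antimicrobial cathelicidin peptide of the mouse, and Ngp the related neutrophilic granule protein. Ngp was the most abundant of the 8 in 4T1-GMP, at 146.7 RPKM (5113 reads), against 49.4 RPKM in NTB-GMP (584 reads). Camp was at 64.9 RPKM in 4T1-GMP (1167 reads) and 25.7 RPKM in NTB-GMP (157 reads). The intervals of their folds of 2.97 (2.73 to 3.24) and 2.52 (2.13 to 3) overlapped. Their log2 ratios of 1.57 and 1.33 were above 98.6% and 98% of tested genes. The 2 coding sequences were 49.9% identical in a global alignment, and no stretch of 50 bases of either transcript occurred in a transcript of another gene.

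The metalloproteinases had the largest ratios of the 8. Mmp8 encodes the neutrophil collagenase, and Mmp9 encodes gelatinase B, which gives gelatinase granules their name. Mmp8 had 13 reads in NTB-GMP, or 0.52 RPKM, against 1035 reads in 4T1-GMP, or 14.1 RPKM. The 27.0-fold difference had an interval of 15.7 to 50.9. Mmp9 was likewise low in NTB-GMP, with 19 reads and 0.59 RPKM, and had 1490 reads and 15.6 RPKM in 4T1-GMP. Its 26.6-fold difference had an interval of 17.0 to 44.3. On the log2(RPKM + 0.1) scale the ratios were 4.51 and 4.52, the 24th and 23rd highest of all tested genes. The width of both intervals comes from the few reads in NTB-GMP, and with a pseudocount of 1 the log2 ratios were 3.31 and 3.39. The intervals of the 2 genes overlapped in both libraries and in their ratio, in 4T1-GMP only at their ends (13.2 to 14.9 RPKM for Mmp8 and 14.9 to 16.5 RPKM for Mmp9).

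The lysozyme genes differed least. Lysozyme cleaves the peptidoglycan of bacterial cell walls; Lyz2 is the form of myeloid cells and Lyz1 is best known from Paneth cells of the gut. Lyz2 was the most abundant of the 8 in NTB-GMP, at 63.9 RPKM (688 reads), and was at 72.7 RPKM in 4T1-GMP (2305 reads), a ratio of 1.14 with an interval of 1.04 to 1.24. Lyz1 was at 5.82 RPKM (75 reads) and 6.93 RPKM (263 reads), a ratio of 1.19 with an interval of 0.917 to 1.56 that included 1. Log2 ratios of 0.18 for Lyz2 and 0.25 for Lyz1 were above 62.9% and 68.5% of tested genes, and that of Lyz2 was -0.07 after quantile normalization.

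**Figure D2:**
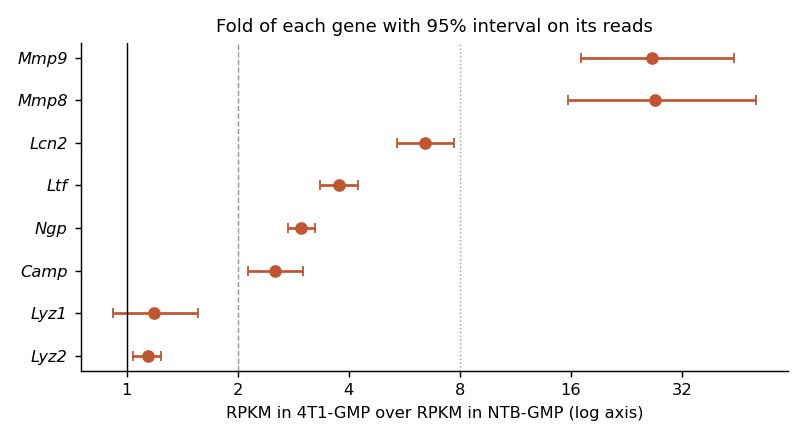
RPKM in 4T1-GMP over RPKM in NTB-GMP for each gene (log axis), with 95% Clopper-Pearson intervals on its reads; lines mark 1 (solid), 2 (dashed) and 8 (dotted). The intervals fall into steps, from both metalloproteinases above 8, through Lcn2, Ltf, Ngp and Camp above 2, to both lysozymes below 2.

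Lyz1 and Lyz2 lie side by side on chromosome 10 and share much of their sequence, which bears on how far reads can be assigned to either. Their coding sequences, each of 447 bases, were identical at 425 positions (95.1%). Of all 50-base stretches in the Lyz1 transcript, 16.1% occurred in Lyz2, and 15.4% of those in Lyz2 occurred in Lyz1, so their separate levels are less certain than their sum. The sum was 69.8 RPKM (NTB-GMP) and 79.6 RPKM (4T1-GMP), a ratio of 1.14. The first 120 coding bases are shown as an example of what separates the genes, from the GENCODE M21 transcripts of GRCm38. Capitals mark the 11 positions at which they differ, and the other 327 coding bases hold 11 more.
Lyz1: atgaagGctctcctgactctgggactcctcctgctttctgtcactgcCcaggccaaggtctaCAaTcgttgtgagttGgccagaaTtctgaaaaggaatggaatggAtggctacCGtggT
Lyz2: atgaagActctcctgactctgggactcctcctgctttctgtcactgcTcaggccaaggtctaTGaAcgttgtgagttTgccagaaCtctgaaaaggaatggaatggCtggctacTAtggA

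The order of the 8 genes by level, which RPKM allows because it is per length, was not the same in the libraries. In NTB-GMP it ran Lyz2, Ngp, Camp, Lcn2, Ltf, Lyz1, Mmp9 and Mmp8, and only Mmp9 and Mmp8 had overlapping intervals among neighbours. In 4T1-GMP it ran Ngp, Lcn2, Lyz2, Camp, Ltf, Mmp9, Mmp8 and Lyz1, and again only the metalloproteinases overlapped. Lyz2 held 37.1% of the summed RPKM of the 8 genes in NTB-GMP and 15.8% in 4T1-GMP, while Lcn2 held 8.76% and 21.1%. Ngp held 28.7% and 31.9%, and the metalloproteinases held under 1% each in NTB-GMP and 3.06% (Mmp8) and 3.4% (Mmp9) in 4T1-GMP. Lyz1, at the foot of the order in 4T1-GMP, was above both metalloproteinases in NTB-GMP. The 8 genes were a small part of either library: their 1978 reads made up 0.0194% of NTB-GMP (Clopper-Pearson interval 0.0186 to 0.0203) and their 17309 reads 0.0577% of 4T1-GMP (interval 0.0568 to 0.0585).

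**Figure D3:**
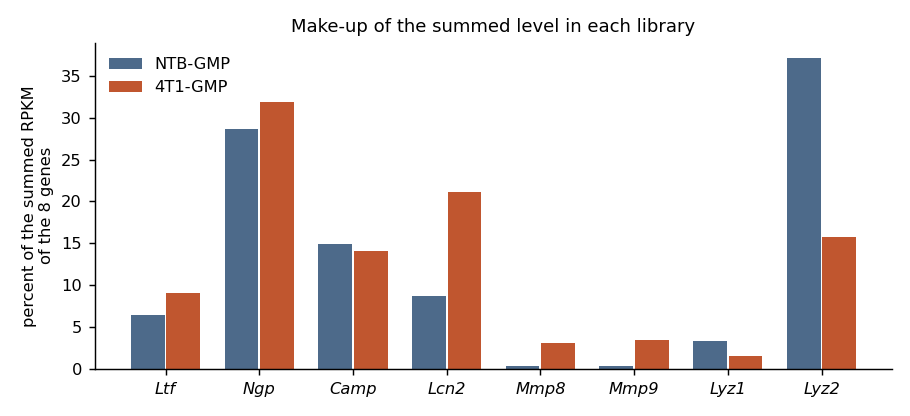
Percent of the summed RPKM of the 8 genes held by each gene in NTB-GMP and 4T1-GMP. Lyz2 has the tallest bar in NTB-GMP (37.1%) and Ngp in 4T1-GMP (31.9%), and the bar of Lcn2 is taller in 4T1-GMP than in NTB-GMP.

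The list of other specific and gelatinase granule proteins held 17 genes, of which 14 were tested. Of these, 7 were at least 2-fold higher and 0 were at least 2-fold lower, with a median log2 ratio of 0.98. The shares over all tested genes were 3.25% higher and 4.92% lower by as much. Olfm4 and Adam8 passed the filter on low values only through 4T1-GMP. The GPI-anchored Cd177 was at 1.85 RPKM (NTB-GMP) and 16.9 RPKM (4T1-GMP), a 9.13-fold difference, the ficolin Fcnb at 12.9 and 72.2 RPKM (log2 ratio 2.48), the protease Adam8 at 0.47 and 2.91 RPKM (2.39), and Cybb, the catalytic subunit of the phagocyte oxidase, at 5.71 and 27.9 RPKM (2.27). The remaining genes past 2-fold were Olfm4 (1.93), Hp (1.56) and Itgb2 (1.05). The count was 6 after quantile normalization, under upper-quartile scaling and without Rn45s. The vitamin B12 carrier Tcn2, at 35.7 and 42.5 RPKM, had the lowest log2 ratio among the tested genes of the list, 0.25. Mmp25, a membrane-bound metalloproteinase of neutrophil granules, was listed at 0 in NTB-GMP and at 1.03 RPKM in 4T1-GMP, and Ptx3 was listed at 0 in both.

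The 9 primary granule genes summed to 10860 RPKM (NTB-GMP) and 17058 RPKM (4T1-GMP), with levels that ran from Bpi, at 0.055 and 0.037 RPKM, to Mpo. Mpo, the myeloperoxidase, stood at 5163 and 5625 RPKM, with a log2 ratio of 0.12 that became -0.04 without Rn45s. Of 8 tested primary granule genes, 3 were at least 2-fold higher, against 3.25% of all tested genes. They were Prtn3, proteinase 3 (log2 ratio 1.24), Srgn, the proteoglycan serglycin (1.18), and Ctsg, cathepsin G (1.11). The count was 1 of 8 after quantile normalization, 2 of 8 without Rn45s and 3 of 8 under the other scalings. The median log2 ratio was 0.71, against 1.74 for the 8 later genes, and this difference between lists was not tested.

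Late neutrophil markers, genes of cells beyond the stages at which granule proteins are made, were mostly higher too. Of 12 such genes, all tested, 10 were at least 2-fold higher, against 3.25% of all tested genes. Ly6g, Fpr1, Fpr2 and Il1b passed the filter on low values only through 4T1-GMP. All 12 genes had a log2 ratio above 0, and the median was 3.0. Without Rn45s, or with upper-quartile scaling, 8 were at least 2-fold higher. Together they summed to 534.9 RPKM (NTB-GMP) and 3900 RPKM (4T1-GMP). Il1b had 1 recovered read in NTB-GMP against 509 in 4T1-GMP, Retnlg was at 5.49 and 78.4 RPKM, Fpr2 at 0.38 and 6.48 RPKM, and S100a9 at 189.1 and 1974 RPKM. Ly6g, whose protein is a component of the Gr-1 antigen of mature neutrophils, was at 0.43 and 4.30 RPKM, and Cxcr2 at 6.58 and 23.1 RPKM. None of the 12 was at 0 in either library, but Il1b in NTB-GMP was below the 3 reads taken as the smallest detected amount. The part of mature cells in the levels of the 8 granule protein genes was not tested.

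**Figure D4:**
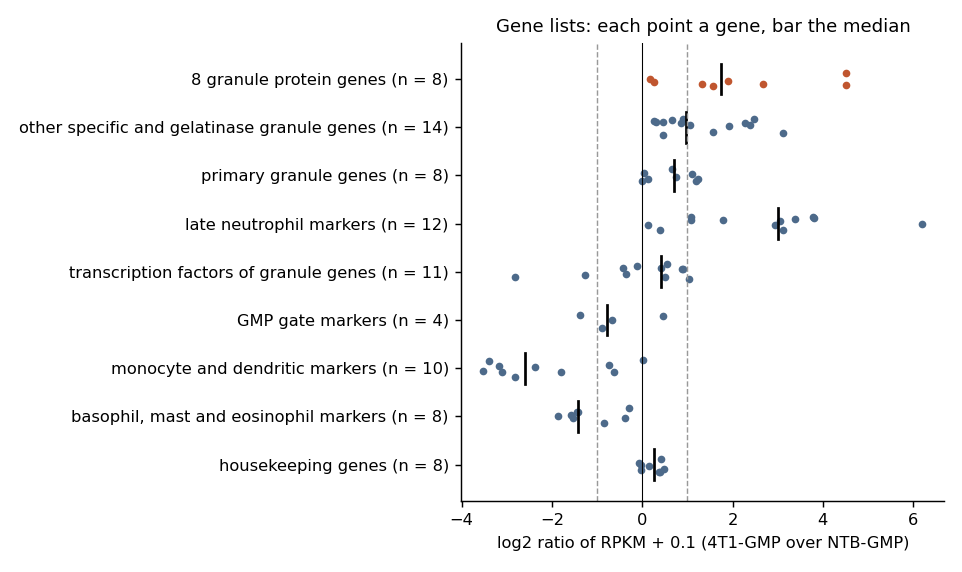
Log2 ratio of RPKM + 0.1 in 4T1-GMP over NTB-GMP for each tested gene (points) of 9 lists, with the list median (bar) and dashed lines at -1 and 1. The 8 granule protein genes have a median of 1.74, late neutrophil markers 3.0 and primary granule genes 0.71, while monocyte and dendritic markers have a median of -2.60.

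Marker lists of other lineages held no tested gene at least 2-fold higher. Over all tested genes, 3.25% were at least 2-fold higher and 4.92% at least 2-fold lower. Monocyte and dendritic markers, of interest because lysozyme is also made by monocytic cells, had 7 of 10 tested genes at least 2-fold lower, 0 higher by as much, and a median log2 ratio of -2.60. They summed to 225.4 RPKM (NTB-GMP) and 85.5 RPKM (4T1-GMP). H2-Aa, an MHC class II chain, was at 21.0 and 1.75 RPKM, and Irf8, a transcription factor of monocyte and dendritic development, at 31.96 and 4.45 RPKM. Macrophage markers had 1 tested gene of 8, Vcam1 (log2 ratio 0.18). Basophil, mast cell and eosinophil markers had 5 of 8 tested genes at least 2-fold lower (median -1.43), stem and early progenitor markers 2 of 4 (median -1.35), and erythroid and megakaryocyte markers 3 of 3 (median -2.26). Of 6 mammary and epithelial markers, Epcam, Krt19 and Cldn4 were listed at 0 in both libraries and Cdh1 was at 5.36 and 1.04 RPKM. Of the lymphoid markers, Cd79b (log2 ratio -0.24) and Nkg7, a granule protein of killer lymphocytes at 190.3 and 337 RPKM (0.82), were tested, and Cd3g was listed at 0 in both libraries. The part of these cells in the levels of the 8 genes was not tested.

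Among the transcription factors that act on granule genes, most stayed within 2-fold. C/EBP epsilon, encoded by Cebpe, is required for specific granules, and C/EBP alpha, PU.1 (Spi1) and Gfi1 act earlier in granulocyte development. Cebpe had 611 reads and 48.5 RPKM in NTB-GMP and 2616 reads and 70.4 RPKM in 4T1-GMP, a ratio of 1.45 with an interval of 1.33 to 1.59. Cebpb (log2 ratio 1.04), Cebpd (0.91), Gfi1 (0.88), Spi1 (0.50) and Stat3 (0.42) were also higher in 4T1-GMP. Of 11 tested factors, Cebpb alone was at least 2-fold higher, against 3.25% of all tested genes. Cebpb was not past 2-fold without Rn45s, under upper-quartile scaling or after centring. Irf8 (-2.82) and Runx1 (-1.26) were at least 2-fold lower, against 4.92% of all tested genes. Myb (-0.11), Cebpa (-0.36) and Klf5 (-0.42) lay between.

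Receptors, inhibitors and relatives of the granule proteins were listed at widely different levels. Fpr2, a formyl peptide receptor that also binds cathelicidin, had a log2 ratio of 3.78. Of 3 tested receptors it was the 1 at least 2-fold higher, against 3.25% of all tested genes. Cd44, a surface docking protein for MMP9, was at 38.4 and 34.2 RPKM (-0.16), and Lrp1, an endocytic receptor of lactoferrin, at 1.16 and 1.90 RPKM (0.66). Of the metalloproteinase inhibitors, Timp1 and Timp4 were listed at 0 in both libraries, Timp2 was at 1.46 and 1.04 RPKM (-0.46), and Reck, a membrane-anchored inhibitor, was at 0.75 and 2.43 RPKM (1.57). Of 19 other genes of the metalloproteinase family, 8 were listed at 0 in both libraries and 2 were tested: Mmp19 (0.54) and Mmp28 (-1.45). Of 16 relatives of the other members, 10 were listed at 0 in both libraries, which in RPKM can also come from how reads were assigned. Transferrin (Trf), the relative of lactoferrin, was at 36.9 and 26.3 RPKM (log2 ratio -0.49). The cystatin genes Cst3 (-0.16), Cst7 (0.51) and Cstb (0.22) stayed within 2-fold. Orm1, a lipocalin relative of Lcn2, had 2 recovered reads in NTB-GMP and 21 in 4T1-GMP. Its ratio was 3.56 with an interval of 0.87 to 31.3. Fpr2, Reck and Orm1 passed the filter on low values only through 4T1-GMP.

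**Figure D5:**
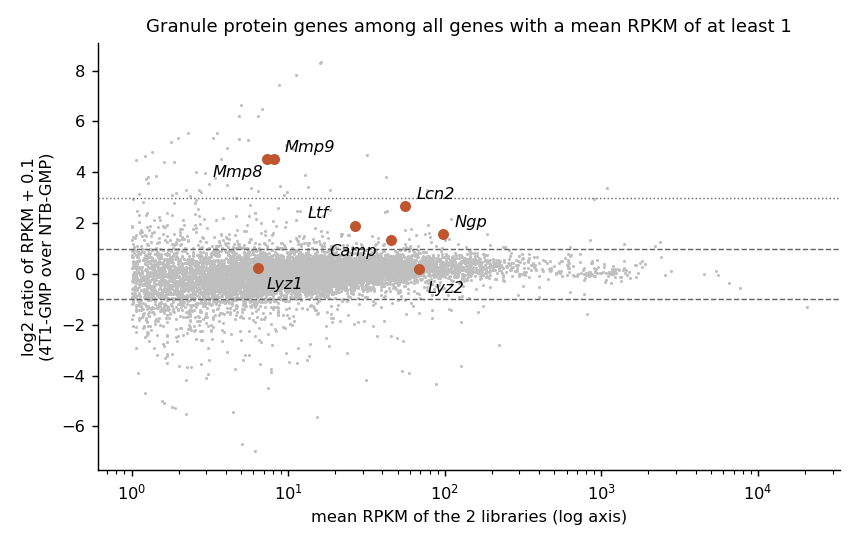
Log2 ratio of RPKM + 0.1 in 4T1-GMP over NTB-GMP against mean RPKM (log axis) for the 10378 tested genes (grey), with the 8 granule protein genes in color and lines at -1 and 1 (dashed) and 3 (dotted). Of the 8, 6 lie above the line at 1 and 2 of them above 3, while Lyz1 and Lyz2 lie within the main cloud.

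Ranked among the 7982 genes whose mean RPKM reached 5, Mmp9 and Mmp8 had the 11th and 12th highest log2 ratios. The 10 genes above them were Stfa2l1, BC100530, Stfa2 and Gm5483, which were listed at 0 in NTB-GMP and between 17.4 and 32.2 RPKM in 4T1-GMP, then Lipg, Il1b and Saa3, which had 1 or 2 reads in NTB-GMP and 13.6, 12.8 and 10.9 RPKM in 4T1-GMP, and Lilrb4a (log2 ratio 5.09), Clu (4.90) and Wfdc17 (4.69). With 2 libraries a gene's pattern is a single ratio, so likeness was taken as distance from the median log2 ratio of the 8 genes, 1.74. By this measure the nearest genes were Rps6ka3 (1.74), Trem3 (1.76), 1600002K03Rik (1.69), Pram1 (1.69), Clec4d (1.68), Cxcr2 (1.79), Tgfbi (1.67), Fam101b (1.66), Frmd6 (1.83) and Ncf4 (1.61), all within 0.129 of it.

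The members are grouped on few chromosomes. In the RefSeq annotation of GRCm38.p6, Camp (chr9:109847377-109849456), Ngp (chr9:110419808-110423012) and Ltf (chr9:111019292-111042766) lie within 1.2 Mb, and Mmp8 (chr9:7558429-7568486) lies elsewhere on the same chromosome. Lcn2 (chr2:32384637-32387739) and Mmp9 (chr2:164940326-164955850) are on chromosome 2, and Lyz2 (chr10:117277541-117282272) and Lyz1 (chr10:117287795-117292868) are 5522 bases apart. Their neighbours were examined for like ratios. Of the 12 other tested genes between Camp and Ltf, 0 were at least 2-fold higher and 1, Mir6236, was at least 2-fold lower. The shares over all tested genes were 3.25% higher and 4.92% lower by as much, and with 12 genes the counts do not stand apart from them. The median log2 ratio of the 12 was -0.25 and the highest 0.65 (Scap). Within 250 kb of Mmp8, Mmp9, Lcn2 and Lyz1 there were 2, 9, 14 and 4 other tested genes, and their log2 ratios lay between -0.87 and 0.89. These regions were chosen after the values were seen.

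Promoter sequences were compared because 6 of the genes were higher together and specific granule genes are known targets of C/EBP factors. RefSeq promoters on GRCm38.p6 matched 7 of the 8 genes, all but Mmp9. Within 250 bases before the start, the C/EBP motif TTGCNNAA, read on both strands, was present in 5 of 7 (Ltf, Ngp, Lcn2, Mmp8 and Lyz1), against 9.56% of all 32851 promoters. Ngp held it at 2 places. Positions count from the RefSeq start. The GENCODE M21 gene of Lcn2 begins 513 bases earlier, so the matches of Lcn2 lie within that annotated gene. The longest GENCODE M21 transcript of Lcn2 has no annotated coding bases, and which of its transcripts begins earliest was not examined. The GENCODE M21 gene of Ngp begins 61 bases earlier, so the match of Ngp 11 to 4 bases before the start also lies within the annotated gene. Of the 5 genes, Lyz1 was not 2-fold higher, and Camp, which was, had no match in this window. The GENCODE M21 gene of Camp begins 161 bases before its RefSeq start, so only 89 of the 250 bases searched lie before both starts. The PU.1 motif GAGGAA was present in 3 of 7 (Ltf, Lcn2 and Mmp8), against 23.3% of promoters, and the TATA box TATAAA in 0 of 7, against 12.4%. A match describes the letters only and is not evidence of binding, and the mice carried alleles of a second background beside the reference strain.

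The 100 bases before the first annotated start are shown for the 3 genes in which they lie in the promoter window and hold a C/EBP match. The match is in capitals, on the strand of the gene. That of Lyz1 lies further out, 209 to 202 bases before its RefSeq start, and is not shown. The stretches lie at chr9:111019171-111019270 (Ltf), chr9:110419647-110419746 (Ngp) and chr9:7558329-7558428 (Mmp8), all on the plus strand.
Ltf: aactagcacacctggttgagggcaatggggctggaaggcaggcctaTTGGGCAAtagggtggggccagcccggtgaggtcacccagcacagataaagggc
Ngp: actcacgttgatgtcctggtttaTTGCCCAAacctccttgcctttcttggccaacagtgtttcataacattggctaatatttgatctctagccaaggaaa
Mmp8: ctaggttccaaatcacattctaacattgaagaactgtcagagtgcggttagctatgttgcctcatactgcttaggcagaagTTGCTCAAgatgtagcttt

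The lysozyme promoters are shown because the 2 genes had overlapping ratios at unequal levels. The stretches from 149 to 50 bases before the RefSeq start, chr10:117292918-117293017 (Lyz1) and chr10:117282322-117282421 (Lyz2) on the minus strand, differed at the 20 of 100 positions set in capitals when compared without gaps, so a shift of a base counts at each position it touches. The 100 bases next to the start were identical at 92 positions, and all 250 bases before it were 79.4% identical in an alignment with gaps. Both of the latter stretches include the 49 bases by which the GENCODE M21 gene of Lyz2 begins before its RefSeq start.
Lyz1: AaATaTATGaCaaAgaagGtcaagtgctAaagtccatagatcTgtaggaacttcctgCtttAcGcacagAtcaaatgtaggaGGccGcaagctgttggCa
Lyz2: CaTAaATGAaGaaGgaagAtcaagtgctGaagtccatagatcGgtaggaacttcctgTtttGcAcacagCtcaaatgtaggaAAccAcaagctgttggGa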

How the data were processed

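The authors deposited RPKM, 1 value per gene symbol and library, at full precision. The submitters' processing notes name mm10 (the UCSC name of GRCm38), CASAVA 1.8.2, cutadapt 1.2.1, TopHat2 2.0.13, Picard 1.97, HTSeq 0.6.1 and edgeR 3.12.1, without their roles; read length, strandedness and gene lengths are not given in the sources used here. RPKM are divided by library size, so where that size is a plain read total, a transcript that fills a library lowers all others.

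Read numbers were worked out by comparing a gene's deposited RPKM in both libraries and by GENCODE M21 transcript lengths. The procedure was tested on simulated data. The library sizes behind the RPKM came to 10180365.24 and 30016262.80, which are not whole numbers and so not plain read totals. How they were scaled is not given in the sources used here, and the setting without Rn45s subtracts its reads from these sizes. The recovered reads may be too few by a whole factor per gene, although for each of the 8 genes, doubling them would need a length beyond its longest annotated transcript. A count of 3 reads was taken as the smallest detected amount.

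Ratios used a pseudocount of 0.1 and a minimum mean RPKM of 1. No test across samples was possible with 1 library per group. Named genes were the 8 members, the 4 largest absolute log2 ratios in each list (all tested factors, receptors and inhibitors), the 10 largest rises and the 10 genes nearest the members' median; others were added after their values were seen. Lists were written from knowledge of the cell types, and members and lists were chosen with earlier results of these data known. Of their symbols, Meltf was listed as Mfi2 and Trbc1 and Trbc2 were not listed. Python 3.11.15, numpy 2.4.6, pandas 2.3.3, scipy 1.17.1, matplotlib 3.10.9 and Biopython 1.88 were used.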

Additional observations from a re-analysis of the deposited data

How the results depend on the processing

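Under every scaling and pseudocount tried, 6 of the 8 genes stayed at least 2-fold higher and 2 at least 8-fold higher in 4T1-GMP. Over these settings, the share of all tested genes ran from 2.27% to 3.65% at 2-fold and from 0.193% to 0.569% at 8-fold. Summing the lysozymes or leaving them out could not change the counts, because both lie below 2-fold. The median log2 ratio of 1.74 was 1.58 after quantile normalization, 1.57 once Rn45s was left out, 1.90 with Lyz1 and Lyz2 summed and 2.29 without them, the last 2 because low ratios leave the list. The fold of the summed RPKM was 2.38 without Rn45s and 2.34 after quantile normalization, and the share of the library size held by the 8 genes was 0.0234% in NTB-GMP and 0.062% in 4T1-GMP without Rn45s. Of 56 values of single members under alternatives, 50 stayed inside the counting interval, 5 left it without a change of sign and 1 reversed, that of Lyz2, at -0.07 after quantile normalization; the cause was not tested. Of 50 list medians, 40 moved by less than the semi-interquartile range of the list and 5 changed sign, all in lists with 1 to 3 tested genes. Without a filter on low values, inhibitors were at -0.41, macrophage markers at -0.97 and lymphoid markers at -0.72, and with a minimum mean RPKM of 5 the metalloproteinase family was at 0.54 and receptors at -0.16, since the filter sets which genes enter. The scalings of lists were chosen after seeing the data. Depth limits Mmp8 and Mmp9 in NTB-GMP most. No paired analysis was possible because there was 1 library per group, which also meant that no library could be left out.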

Other observations

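Housekeeping genes, listed to show the spread of genes not tied to granules, had a median log2 ratio of 0.27, with 5 of 8 above 0 and 0 at least 2-fold different. The highest were Gapdh (0.49), Hprt (0.42), Ppia (0.40) and Actb (0.37), so Lyz1 (0.25) and Lyz2 (0.18) lay within the range of these genes. Without Rn45s, the median of the housekeeping list was 0.10.

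Gene lengths recovered from the RPKM came out close to annotated transcripts for 4 of the 8 genes: 2742 bases for Ltf, 2453 for Mmp8, 3174 for Mmp9 and 1265 for Lyz1, against longest GENCODE M21 transcripts of 2743, 2425, 3175 and 1263 bases. The recovered lengths of Ngp (1161), Camp (599), Lcn2 (853) and Lyz2 (1057) were shorter than their longest transcripts of 1222, 758, 1374 and 1316 bases. An RPKM is divided by this length, so the levels of the latter genes relative to each other depend on the annotation used, while the ratios between libraries do not.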
